A study of Mus musculus with 24 samples.

Results

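The genes described here handle arginine and the polyamines around *Arg1*. They are a named list of 10 genes, *Arg1*, *Arg2*, *Nos2*, *Slc7a2*, *Odc1*, *Azin1*, *Srm*, *Sms*, *Sat1* and *Paox*, matched by symbol to the 56884 genes of a count table, with no threshold on a measured value. All 10 passed the filter on low counts and are among the 13679 genes tested. *Nos2* passed it only through its tunicamycin libraries, with 83 to 88 reads each, against at most 15 reads in any other library. RNA was taken from bone marrow–derived macrophages (BMDM), marrow cells cultured with the growth factor M-CSF for 6 days, of 4 wild-type female C57BL/6J mice aged 9 weeks. The mice are numbered 1, 2, 4 and 5, and each gave a library in each of 6 groups, 24 libraries in all. Naive macrophages got no cytokine. The IL-4/IL-13 group got IL-4 and IL-13, each at 20 ng/ml, for 24 hours, and the 4 remaining groups got the same cytokines together with inhibitors, which were also given for 1 hour beforehand. These were tunicamycin at 5 µg/ml, which blocks N-linked glycosylation and so loads the endoplasmic reticulum, Sal003 at 10 µM, which slows the dephosphorylation of the translation factor eIF2α, and, in the groups Oligo and Oli_ISR, oligomycin, an ATP synthase blocker, at 1 µM. Libraries of either Oligo or Oli_ISR also had ISRIB at 1 µM, a compound that counters the integrated stress response set off by phosphorylated eIF2α. Sample titles and treatments assign ISRIB to the group Oligo and library names and replicate tags assign it to Oli_ISR, so the groups are called by library name and neither reading was chosen. No vehicle-only group is among the samples, and cells of a plate hold a mixture that a bulk library averages.

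Arginine enters macrophages through cationic amino acid carriers, among them the protein of *Slc7a2*. Inside, arginases split it to urea and ornithine, while nitric oxide synthase turns it into nitric oxide and citrulline. Ornithine decarboxylase, the product of *Odc1*, makes putrescine from ornithine, from which spermidine and spermine are built. Arginase 1 is a standard marker of macrophages activated by type 2 cytokines and inducible nitric oxide synthase a standard marker of those activated by bacterial products and interferon-γ.

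Promoter sequences are shown for *Arg1*, *Slc7a2*, *Nos2* and *Srm*, the 4 members with the largest log2 fold changes between tunicamycin and IL-4/IL-13. Each is the 300 bases before the start of the canonical transcript, read 5′ to 3′ on the gene's strand from GRCm39 with the GENCODE annotation. Capitals mark matches to 3 motifs that were searched for on both strands: TTCNNNNGAA, the spacing preferred by STAT6, TGATGNAA, the core of the element bound by ATF4 with a C/EBP partner, and the E-box CACGTG. They lie at chr10:24803517-24803816 on the minus strand (*Arg1*) and, on the plus strand, at chr8:41315133-41315432 (*Slc7a2*), chr11:78811313-78811612 (*Nos2*) and chr4:148675640-148675939 (*Srm*).
Arg1: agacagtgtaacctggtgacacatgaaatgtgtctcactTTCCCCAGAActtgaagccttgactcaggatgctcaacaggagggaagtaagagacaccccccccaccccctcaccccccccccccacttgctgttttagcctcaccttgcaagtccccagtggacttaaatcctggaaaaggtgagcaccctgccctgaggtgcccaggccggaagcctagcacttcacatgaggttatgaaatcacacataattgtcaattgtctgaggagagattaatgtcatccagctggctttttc
Slc7a2: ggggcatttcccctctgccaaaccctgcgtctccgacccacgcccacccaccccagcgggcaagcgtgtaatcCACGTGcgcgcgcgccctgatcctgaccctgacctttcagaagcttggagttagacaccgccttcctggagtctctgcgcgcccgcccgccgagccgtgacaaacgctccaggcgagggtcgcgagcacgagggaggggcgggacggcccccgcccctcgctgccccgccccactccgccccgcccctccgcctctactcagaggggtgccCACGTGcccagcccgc
Nos2: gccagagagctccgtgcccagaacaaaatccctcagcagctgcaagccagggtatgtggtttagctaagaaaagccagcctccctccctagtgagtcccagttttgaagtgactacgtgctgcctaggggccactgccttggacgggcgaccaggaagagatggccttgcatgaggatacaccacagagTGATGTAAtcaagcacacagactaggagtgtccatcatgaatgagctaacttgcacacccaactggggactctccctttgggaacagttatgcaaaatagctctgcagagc
Srm: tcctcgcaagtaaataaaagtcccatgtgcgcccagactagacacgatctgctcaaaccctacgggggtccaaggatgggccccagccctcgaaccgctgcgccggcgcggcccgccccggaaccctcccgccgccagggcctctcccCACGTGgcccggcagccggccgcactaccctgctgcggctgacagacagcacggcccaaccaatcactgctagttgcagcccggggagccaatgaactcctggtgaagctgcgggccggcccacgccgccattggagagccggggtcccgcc

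*Arg1* has the match TTCCCCAGAA, whose first base lies at -261 from the start. *Slc7a2* has CACGTG at -227 and -16, *Srm* has it at -152, and *Nos2* has TGATGTAA at -111. Among the 6 promoters not shown, that of *Arg2* holds TTCCCGGGAA at -211 and that of *Sms* holds CACGTG at -183. The STAT6-type letters are therefore in 2 of 10 promoters of the list and in 7.4% of 21757 promoters of protein-coding genes of the same length. The ATF4-type letters are in 1 of 10 and 4.1%, and the E-box in 3 of 10 and 7.0%. A match describes the letters of a window and nothing was measured at these sites.

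Between 16238727 and 26725278 reads per library fell on genes (median 18999998), and a further 12.74% to 15.231% of reads on no gene. Levels are given as counts scaled to an equal normalized library total (CPM), as mean ± SD of 4 mice, and differences as log2 fold changes with the standard error (SE) and the adjusted *P* value from the quasi-likelihood test of edgeR (Benjamini-Hochberg, over all genes tested). A gene rose or fell where the adjusted *P* value was under 0.05. All 7 macrophage markers examined, *Lyz2* and *Csf1r* among them, had counts in each group. Their sum was 30553 to 36270 CPM in naive libraries, 11361 to 13762 in IL-4/IL-13, 16063 to 17639 in tunicamycin, 13789 to 15512 in Sal003, 8716 to 9532 in Oligo and 13397 to 15291 CPM in Oli_ISR libraries. Markers of other cells were low but moved between groups. The 6 neutrophil genes summed to 31.6 to 62.2 CPM in naive, 18.0 to 33.2 in IL-4/IL-13, 14.6 to 18.5 in Oli_ISR, 4.2 to 6.74 in Sal003, 1.97 to 3.72 in Oligo and 0.0513 to 0.285 in tunicamycin libraries, and *Ly6g* and *Camp* were at 0 in the Oligo and tunicamycin groups. The 5 fibroblast genes summed to 18.4 to 139 CPM in naive, 15.3 to 86.9 in IL-4/IL-13 and 3.56 to 24.6 in tunicamycin libraries. They summed to 7.77 to 48.0 CPM with Sal003, 5.59 to 54.8 in Oligo and 7.97 to 53.3 in Oli_ISR libraries. The 5 T cell genes stood at 10.1 to 13.6 CPM in naive and 1.12 to 4.68 CPM in the other libraries, with at least 1 of *Cd3e*, *Cd3d* and *Cd3g* at 0 in each cytokine-treated group. Dendritic cell genes summed to 2.52 to 5.61 CPM in naive, 4.53 to 6.37 in IL-4/IL-13 and 0.907 to 2.28 CPM in the other libraries, and eosinophil and mast cell genes to 0.745 to 1.77, 1.11 to 1.91 and at most 0.305 CPM. B cell and erythroid genes summed to at most 1.22 and 0.162 CPM. The part of these cells in the results below was not tested, and fewer cells of a type and less RNA per cell cannot be told apart in bulk RNA.

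*Arg1* (ENSMUSG00000019987, chromosome 10, 24791118 to 24803817, minus strand, GRCm39) encodes cytosolic arginase, the first step from arginine to ornithine. Naive libraries held 1, 1, 0 and 2 reads of it in mice 1, 2, 4 and 5. With IL-4/IL-13 it had 465, 473, 475 and 405 CPM. *Arg1* was thus close to absent without cytokine and among the abundant transcripts with it. The mean of the cytokine group was 2902-fold the level that 3 counts per naive library would give. The neutrophil markers were highest in the naive libraries, in which *Arg1* had no more than 2 reads. The part of other cells in the *Arg1* level of any group was not tested.

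With tunicamycin this induction was almost absent. *Arg1* had 3, 5, 0 and 1 reads in mice 1, 2, 4 and 5, which is 9 reads in 4 libraries and 0.0254% of the IL-4/IL-13 level (95% exact Poisson interval from 0.0116% to 0.0481%, for counting error only). The log2 fold change was -11.86 (SE 0.28, adjusted *P* = 7.8e-22), and -12.51 without mouse 2, which had the most reads. Between the tunicamycin and naive groups *Arg1* did not pass the test (adjusted *P* = 0.49), at counts too low to show a difference.

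The other inhibitors left a part of the induction. With Sal003 *Arg1* had 154, 133, 131 and 94.9 CPM in mice 1, 2, 4 and 5, and in the Oligo group 179, 164, 140 and 110 CPM. In the Oli_ISR group it had 336, 304, 296 and 244 CPM. Every library of these groups lay below every IL-4/IL-13 library, and mouse 5 was the lowest in each of the 4 groups with *Arg1* above 100 CPM on average. Relative to the IL-4/IL-13 library of the same mouse, *Arg1* kept 28.1% ± 3.98 with Sal003, 32.4% ± 5.12 in Oligo and 64.8% ± 5.21 in Oli_ISR libraries. The log2 fold changes were -1.82 (SE 0.13, adjusted *P* = 2.4e-11), -1.62 (SE 0.13, adjusted *P* = 7.1e-11) and -0.62 (SE 0.13, adjusted *P* = 0.000202). Between the groups with oligomycin, Oligo was lower than Oli_ISR by 0.99 on the log2 scale (a log2 fold change of -0.99, SE 0.13, adjusted *P* = 9.8e-07), with 44.9% to 53.8% of the Oli_ISR level in the 4 mice. Oligo and Sal003 did not pass the test against each other (log2 fold change 0.21, SE 0.13, adjusted *P* = 0.20). With the mouse as a replicate block, which pairs the libraries, they did (log2 fold change 0.20, adjusted *P* = 0.017), and Oligo was higher in 4 of 4 mice. The order of levels was therefore IL-4/IL-13, Oli_ISR, then Oligo and Sal003, then tunicamycin and naive, where neighbors joined by "and" were not told apart without the block. A predicted gene on the opposite strand, *Gm36172*, overlaps 23.8% of the exonic bases of *Arg1*, and it had at most 1.84 CPM in any library.

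*Arg2* (ENSMUSG00000021125, chromosome 12, 79177524 to 79203075, plus strand) encodes the mitochondrial arginase and was a rare transcript in all groups. In mice 1, 2, 4 and 5 it had 2.54, 2.84, 2.47 and 2.04 CPM without cytokine and 1.22, 0.907, 1.95 and 1.52 CPM with IL-4/IL-13. It had 0.205, 0.476, 0.0567 and 0.204 CPM with tunicamycin, from 4, 10, 1 and 4 reads, where IL-4/IL-13 libraries held 18 to 37 reads. It was lower with the cytokines, and lower again with tunicamycin, without overlap between groups, by a log2 fold change of -0.82 (SE 0.22, adjusted *P* = 0.0027) for IL-4/IL-13 against naive and of -2.49 (SE 0.33, adjusted *P* = 1.9e-07) for tunicamycin against IL-4/IL-13. Without mouse 2 the latter was -3.26. With Sal003 *Arg2* stood at 2.33, 2.76, 3.17 and 3.34 CPM, in Oli_ISR libraries at 3.90, 4.35, 4.01 and 3.68 CPM, and in Oligo libraries at 1.23, 1.74, 1.52 and 1.30 CPM. Sal003 and Oli_ISR libraries were all above the IL-4/IL-13 libraries and Oligo libraries were among them. *Arg2* rose with Sal003, by 1.05 on the log2 scale (SE 0.22, adjusted *P* = 0.00027) and by 1.51 in Oli_ISR (SE 0.21, adjusted *P* = 1.5e-06), against 0.05 in Oligo (SE 0.24, adjusted *P* = 0.86). Oligo was lower than Oli_ISR (log2 fold change -1.45, SE 0.21, adjusted *P* = 3.4e-06). *Arg2* and *Arg1* thus moved in opposite directions with the cytokines, with Sal003 and in Oli_ISR, and in the same direction with tunicamycin. On the opposite strand *Vti1b* and *Gm48780* overlap 41.8% of the exonic bases of *Arg2*, and whether counting used strand is not given in the sources used here, so their reads may not be separable. *Vti1b* had 61.3 ± 7.90 CPM in naive, 61.5 ± 2.15 in IL-4/IL-13 and 90.6 ± 3.31 CPM in tunicamycin libraries, where *Arg2* was lowest.

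*Nos2* (ENSMUSG00000020826, chromosome 11, 78811613 to 78851080, plus strand) encodes inducible nitric oxide synthase, which competes with arginase for arginine. Naive libraries held 6, 2, 7 and 5 reads of it and IL-4/IL-13 libraries 3, 3, 0 and 2 reads, a difference that did not pass the test (adjusted *P* = 0.099) and passed it without mouse 2 (log2 fold change -1.63, adjusted *P* = 0.042). With tunicamycin the 4 libraries held 83, 88, 83 and 85 reads, or 4.37 ± 0.231 CPM. Tunicamycin libraries were all above those of any other group. Their mean was 26.6-fold the level that 3 counts per IL-4/IL-13 library would give (edgeR's adjusted *P* against IL-4/IL-13 = 1.1e-11). The fitted difference from naive was 16.4-fold (log2 fold change 4.04, SE 0.34, adjusted *P* = 8.3e-11). The level remained low: per unit of length, *Nos2* reached 5.09 ± 0.236 TPM (counts per exon length, scaled to an equal total), where *Arg1* reached 650 ± 44.2 TPM in IL-4/IL-13 libraries. With Sal003 there were 0.311 to 0.772 CPM, in Oligo 0.188 to 0.419 CPM and in Oli_ISR 0.0565 to 0.661 CPM, from 1 to 15 reads per library. Against IL-4/IL-13 these groups passed the test with adjusted *P* values of 0.0028, 0.024 and 0.034. *Nos2* was open to these tests only because its tunicamycin libraries met the filter on low counts, so no conclusion is drawn from these calls. Their means were 2.93-fold, 2.03-fold and 1.95-fold the level that 3 counts per IL-4/IL-13 library would give. These ratios are no lower bounds, because the IL-4/IL-13 libraries held up to 3 reads themselves and both sides carry counting error. The call for Sal003 was lost without mouse 5 (adjusted *P* = 0.053). The call for Oligo was lost without mouse 1, 4 or 5, and that for Oli_ISR without mouse 1, 2 or 5. None of these 3 groups passed the test against naive (adjusted *P* = 0.097, 0.53 and 0.59), and Sal003 did so without mouse 4 (log2 fold change 1.18, adjusted *P* = 0.033).

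**Figure D1:**
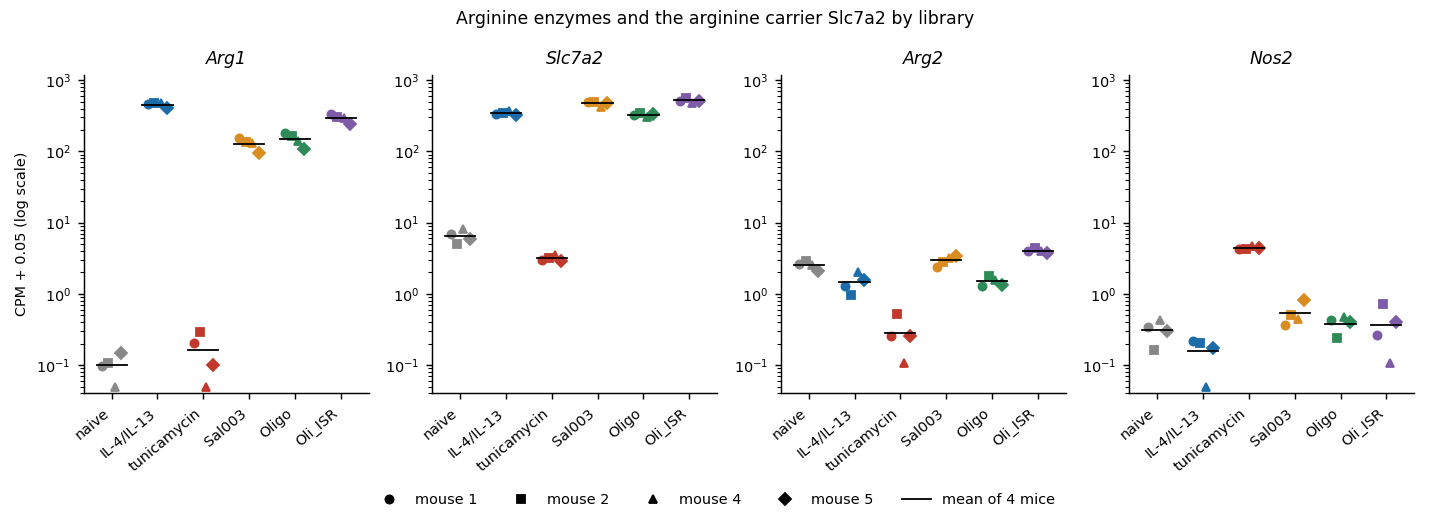
Levels of *Arg1*, *Slc7a2*, *Arg2* and *Nos2* in the 24 libraries, as CPM plus 0.05 on a log axis, with groups on the horizontal axis, a symbol per mouse and a line at the mean of 4 mice. *Arg1* and *Slc7a2* were high in the 4 groups other than naive and tunicamycin, *Nos2* was highest with tunicamycin, and *Arg1* but not *Slc7a2* lay lower with Sal003 than with IL-4/IL-13 alone.

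Transcripts of *Arg1*, *Arg2* and *Nos2*, 3 of the genes whose enzymes consume arginine, can be set against each other per length. Others, such as *Gatm* described below, are not in the sum. In naive macrophages *Arg2* made up 95.7% ± 1.55 of the summed TPM of *Arg1*, *Arg2* and *Nos2*, a sum of only 8.55 ± 0.757 TPM. With IL-4/IL-13 the sum was 655 ± 43.9 TPM and *Arg1* made up 99.3% ± 0.209. With tunicamycin the sum was back at 6.10 ± 0.573 TPM and *Nos2* made up 84.1% ± 10.8. *Arg1* still held 94.8% ± 1.82 with Sal003, 97.7% ± 0.483 in Oligo and 97.0% ± 0.343 in Oli_ISR libraries, with sums of 191 ± 33.6, 242 ± 48.4 and 441 ± 54.2 TPM. Each of the 3 genes thus had the largest share of this sum in at least 1 group, at sums that differed widely.

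**Figure D2:**
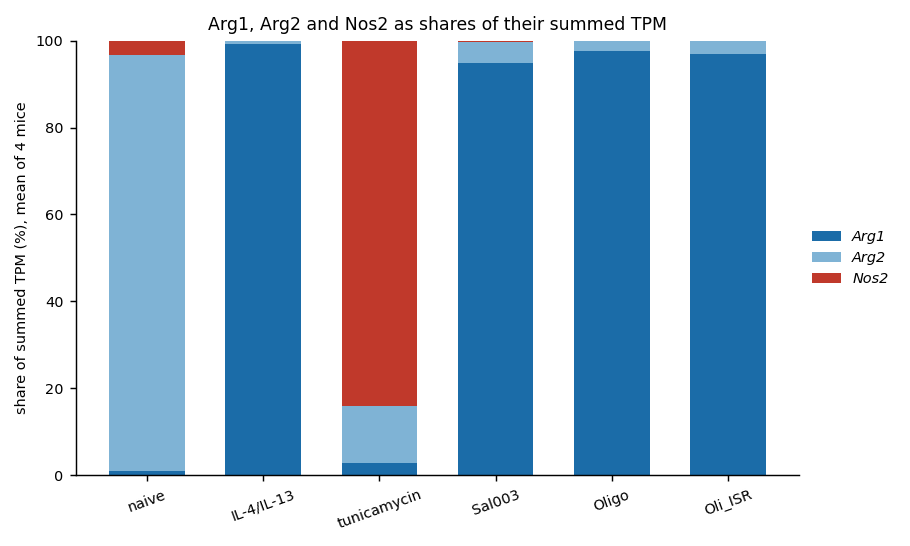
Stacked bars of the shares of *Arg1*, *Arg2* and *Nos2* in their summed TPM, in percent, as the mean of 4 mice per group. *Arg2* filled most of the naive bar, *Nos2* 84.1% of the tunicamycin bar and *Arg1* at least 94.8% of the 4 other bars.

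*Slc7a2* (ENSMUSG00000031596, chromosome 8, 41315431 to 41375345, plus strand) encodes CAT2, a carrier of arginine, lysine and ornithine. In mice 1, 2, 4 and 5 it had 6.78, 5.00, 7.98 and 5.76 CPM without cytokine and 337, 350, 370 and 324 CPM with IL-4/IL-13, a log2 fold change of 5.75 (SE 0.10, adjusted *P* = 6.3e-24). With tunicamycin it had 2.98, 3.09, 3.46 and 2.85 CPM, 0.895% ± 0.0262 of the IL-4/IL-13 library of the same mouse (log2 fold change -6.80, SE 0.10, adjusted *P* = 2.5e-25). Tunicamycin libraries were all below naive libraries too, at a log2 fold change of -1.05 (SE 0.13, adjusted *P* = 7.1e-08). *Slc7a2* thus rose with the cytokines and fell from there with tunicamycin, as *Arg1* did, and only *Slc7a2* of the pair passed the test between tunicamycin and naive.

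With Sal003 and in Oli_ISR it rose over IL-4/IL-13, where *Arg1* fell. *Slc7a2* had 489, 497, 422 and 478 CPM with Sal003 and 513, 569, 485 and 511 CPM in Oli_ISR libraries, all above the IL-4/IL-13 libraries. In Oligo libraries it had 321, 343, 307 and 334 CPM, overlapping them. The log2 fold changes were 0.45 with Sal003 (SE 0.07, adjusted *P* = 8.6e-06), 0.59 in Oli_ISR (SE 0.07, adjusted *P* = 1.2e-07) and -0.08 in Oligo (SE 0.07, adjusted *P* = 0.31). The same mice kept 28.1% of *Arg1* and 137% ± 15.5 of *Slc7a2* with Sal003, and 32.4% of *Arg1* and 94.8% ± 8.57 of *Slc7a2* in Oligo. As for *Arg1*, Oligo was lower than Oli_ISR (log2 fold change -0.67, SE 0.07, adjusted *P* = 3.0e-08). Oli_ISR and Sal003 were not told apart (adjusted *P* = 0.18). The 3 comparisons with IL-4/IL-13 share the same 4 IL-4/IL-13 libraries.

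*Odc1* (ENSMUSG00000011179, chromosome 12, 17594383 to 17601507) encodes ornithine decarboxylase, which controls entry into polyamine synthesis. It stood at 41.8 ± 5.81 CPM in naive macrophages, 64.7 ± 2.96 with IL-4/IL-13 and 111 ± 3.23 with tunicamycin. It had 89.6 ± 8.11 CPM with Sal003, 113 ± 2.38 in Oligo and 89.9 ± 6.98 in Oli_ISR libraries. *Odc1* thus rose with the cytokines and again with each inhibitor, without overlap with the IL-4/IL-13 libraries, including under tunicamycin, where *Arg1* was at 0 to 5 reads. The log2 fold changes were 0.63 for the cytokines (SE 0.08, adjusted *P* = 9.4e-08) and, against IL-4/IL-13, 0.77 with tunicamycin (SE 0.07), 0.47 with Sal003 (SE 0.07), 0.80 in Oligo (SE 0.07) and 0.48 in Oli_ISR (SE 0.07), with adjusted *P* values of at most 8.6e-06. Oligo was higher than Oli_ISR by 0.33 (SE 0.07, adjusted *P* = 0.00068). Oligo and tunicamycin, and Oli_ISR and Sal003, were not told apart.

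*Azin1* (ENSMUSG00000037458, chromosome 15, 38487539 to 38519785) encodes an antizyme inhibitor, which keeps ornithine decarboxylase from being degraded. In mice 1, 2, 4 and 5 it had 118, 105, 126 and 121 CPM without cytokine, 143, 143, 154 and 139 CPM with IL-4/IL-13, and 303, 310, 309 and 315 CPM in Oligo libraries. It rose in every step that raised *Odc1*, with log2 fold changes of 0.31 for the cytokines (SE 0.05, adjusted *P* = 4.1e-06), 0.77 with tunicamycin (SE 0.05), 0.49 with Sal003 (SE 0.05), 1.09 in Oligo (SE 0.05) and 0.69 in Oli_ISR (SE 0.05). *Azin1* was highest in Oligo, above both tunicamycin (248 ± 2.78 CPM, adjusted *P* = 1.3e-06) and Oli_ISR (234 ± 6.74 CPM, adjusted *P* = 1.2e-07). With Sal003 it had 204 ± 8.15 CPM.

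*Srm* (ENSMUSG00000006442, chromosome 4, 148675940 to 148681792) encodes spermidine synthase, which turns putrescine into spermidine. Mice 1, 2, 4 and 5 had 10.9, 14.0, 9.06 and 8.74 CPM without cytokine and 20.0, 19.3, 19.7 and 19.2 CPM with IL-4/IL-13. With tunicamycin it had 156, 152, 146 and 148 CPM. *Srm* was thus highest with tunicamycin, at a log2 fold change of 2.94 over IL-4/IL-13 (SE 0.08, adjusted *P* = 1.1e-20), while with the cytokines alone it rose over naive by 0.88 (SE 0.09, adjusted *P* = 9.4e-09). Oligo libraries had 31.9 ± 2.02 CPM and rose by 0.71 (SE 0.08, adjusted *P* = 5.0e-08). Oli_ISR libraries had 16.3 ± 0.643 CPM and fell (log2 fold change -0.26, SE 0.09, adjusted *P* = 0.014), a call lost without mouse 1 (adjusted *P* = 0.089). Sal003 libraries had 17.1 ± 1.21 CPM, which did not pass the test (log2 fold change -0.20, SE 0.09, adjusted *P* = 0.069) and passed under 6 of the alternatives tried, at adjusted *P* values from 0.0087 to 0.045. The groups with oligomycin differed by 0.97 (SE 0.08, adjusted *P* = 1.1e-09), with *Srm* higher in Oligo in 4 of 4 mice.

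*Sms* (ENSMUSG00000071708, chromosome X, 156226848 to 156275317) encodes spermine synthase, the next enzyme of the chain. It changed less, from 14.2 ± 2.15 CPM in naive to 20.6 ± 0.991 CPM with IL-4/IL-13 (log2 fold change 0.53, SE 0.08, adjusted *P* = 4.8e-06). With Sal003 it had 14.8 ± 0.923 CPM, in Oligo 14.5 ± 0.964 CPM and in Oli_ISR 15.1 ± 1.35 CPM, close to the naive level. Each of these fell below every IL-4/IL-13 library, with log2 fold changes of -0.47, -0.50 and -0.45 (SE 0.08 each, adjusted *P* at most 5.8e-05), and none passed the test against naive. Without mouse 2, whose naive library had the highest *Sms* level of its group, Sal003 did (log2 fold change 0.19, adjusted *P* = 0.020). With tunicamycin it had 18.0 ± 0.763 CPM and the log2 fold change was -0.19 (SE 0.08, adjusted *P* = 0.036), a call lost without mouse 1, 4 or 5 and with no filter on low counts (adjusted *P* = 0.17). *Srm* and *Sms* thus diverged in Oligo and with tunicamycin, where *Srm* rose and *Sms* fell, the latter by an unstable call with tunicamycin. Of the 75-base windows of *Sms*, 14.4% also occur in transcripts of other genes, *Sms-ps* among them. The share was 31.6% for *Arg2*, 14.4% for *Paox*, 13.6% for *Arg1*, 10.9% for *Odc1* and at most 7.4% for the remaining members.

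*Sat1* (ENSMUSG00000025283, chromosome X, 153996128 to 153999452) encodes the acetyltransferase that marks spermidine and spermine for export or breakdown. Per length it was the highest of the 10 genes in each group, at 1077 ± 81.4 TPM in naive and 1029 ± 43.0 TPM in IL-4/IL-13 libraries, also when the longest or the canonical transcript gave the length. In CPM it had 642, 699, 567 and 569 in naive and 656, 618, 620 and 610 in IL-4/IL-13 libraries of mice 1, 2, 4 and 5, which did not differ by the test (adjusted *P* = 0.87). Tunicamycin libraries had 266, 240, 231 and 249 CPM, the lowest of all groups (log2 fold change -1.34, SE 0.07, adjusted *P* = 1.1e-14). Sal003 libraries had 863, 891, 808 and 996 CPM and Oli_ISR libraries 660, 789, 767 and 835 CPM. Both rose, by 0.51 (SE 0.07, adjusted *P* = 1.7e-06) and 0.29 (SE 0.07, adjusted *P* = 0.0015). In Oligo the level was 664 ± 4.84 CPM (log2 fold change 0.08, SE 0.07, adjusted *P* = 0.31). This did not pass the test, though every Oligo library lay above every IL-4/IL-13 library. With only the groups compared it did pass (adjusted *P* = 0.049). Oligo was lower than Oli_ISR in 3 of 4 mice (log2 fold change -0.20, SE 0.07, adjusted *P* = 0.026), a call lost without mouse 2, 4 or 5 and with upper-quartile normalization.

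*Paox* (ENSMUSG00000025464, chromosome 7, 139695712 to 139717169) encodes the oxidase that returns acetylated polyamines to putrescine and spermidine. It fell from 11.1 ± 0.441 CPM in naive to 8.02 ± 0.581 CPM with IL-4/IL-13 (log2 fold change -0.47, SE 0.08, adjusted *P* = 1.2e-05) and to 5.99 ± 0.404 CPM with tunicamycin (log2 fold change -0.42, SE 0.08, adjusted *P* = 8.0e-05). It rose above both levels with Sal003 (13.4 ± 0.683 CPM), in Oligo (13.3 ± 1.06 CPM) and in Oli_ISR (14.2 ± 1.17 CPM), by log2 fold changes of 0.74, 0.73 and 0.82 over IL-4/IL-13 (SE 0.08 each, adjusted *P* at most 1.6e-08). These 3 groups were not told apart in this gene. Tunicamycin was the group in which *Srm* was highest and *Sat1* and *Paox* were lowest.

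**Figure D3:**
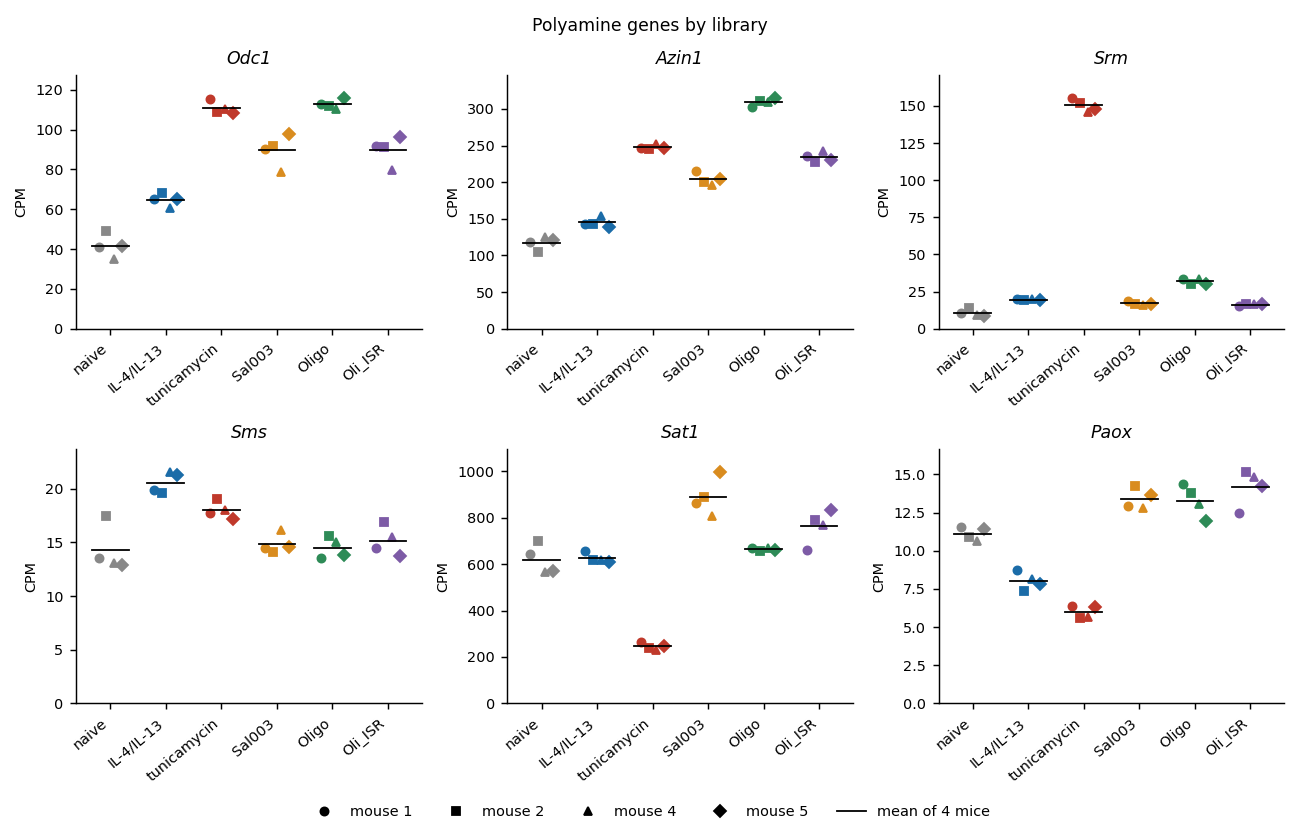
CPM of *Odc1*, *Azin1*, *Srm*, *Sms*, *Sat1* and *Paox* on linear axes that start at 0, by group, with a symbol per mouse and a line at the mean of 4 mice. *Odc1* and *Azin1* were lowest in naive libraries, *Srm* was 150 ± 4.35 CPM with tunicamycin and at most 33.7 CPM elsewhere, and *Sat1* was lowest with tunicamycin.

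The 10 genes were chosen with earlier results of these data known, so the counts and medians below describe them and do not test the list. Counted over the list, 6 of the 10 genes rose and 2 fell with IL-4/IL-13 against naive, where 30.1% of all genes rose and 30.4% fell. The median log2 fold change was 0.42 over the 10 genes and -0.02 over all genes tested. With tunicamycin against IL-4/IL-13, 4 rose (*Nos2*, *Odc1*, *Azin1*, *Srm*) and 6 fell, where 38.7% of all genes rose and 37.6% fell, with medians of -0.31 and 0.01. With Sal003, 7 rose and 2 fell (*Arg1* and *Sms*), against 25.9% and 24.6% of all genes, with medians of 0.48 and 0.00. In Oligo, 5 rose and 2 fell (again *Arg1* and *Sms*), against 34.0% and 32.2%, with medians of 0.40 and 0.01. In Oli_ISR, 7 rose and 3 fell (*Arg1*, *Srm* and *Sms*), against 27.9% and 26.4%, with medians of 0.53 and 0.00. Between Oligo and Oli_ISR, *Odc1*, *Azin1* and *Srm* were higher in Oligo and *Arg1*, *Arg2*, *Slc7a2* and *Sat1* lower, against 19.9% and 21.3% of all genes. The counts of genes that rose with Sal003, in Oligo and in Oli_ISR include *Nos2*, which passed the filter on low counts only through its tunicamycin libraries. The medians are the same when genes measured against a group at the floor are set to their ratio over the floor.

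Changes of at least 2.5-fold, the size the study used, were fewer. They were 2 of 10 with the cytokines (*Arg1* and *Slc7a2*, 11.5% of all genes) and 6 of 10 with tunicamycin (*Arg1*, *Arg2*, *Nos2*, *Slc7a2*, *Srm* and *Sat1*, 22.6% of all genes). They were 2 with Sal003 (*Arg1* and *Nos2*, 7.71% of all genes), 2 in Oligo (*Arg1* and *Nos2*, 12.7%), 2 in Oli_ISR (*Arg2* and *Nos2*, 7.96%) and 1 between Oligo and Oli_ISR (*Arg2*, 2.62%). *Nos2* is in the counts for Sal003, Oligo and Oli_ISR only because its tunicamycin libraries met the filter. Each of these calls was lost when single mice were left out. Against 3 counts per IL-4/IL-13 library, the ratios for *Nos2* in Oligo and Oli_ISR, 2.03-fold and 1.95-fold, do not reach 2.5-fold. Most members that passed the test with Sal003 or oligomycin thus moved by less than this size.

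**Figure D4:**
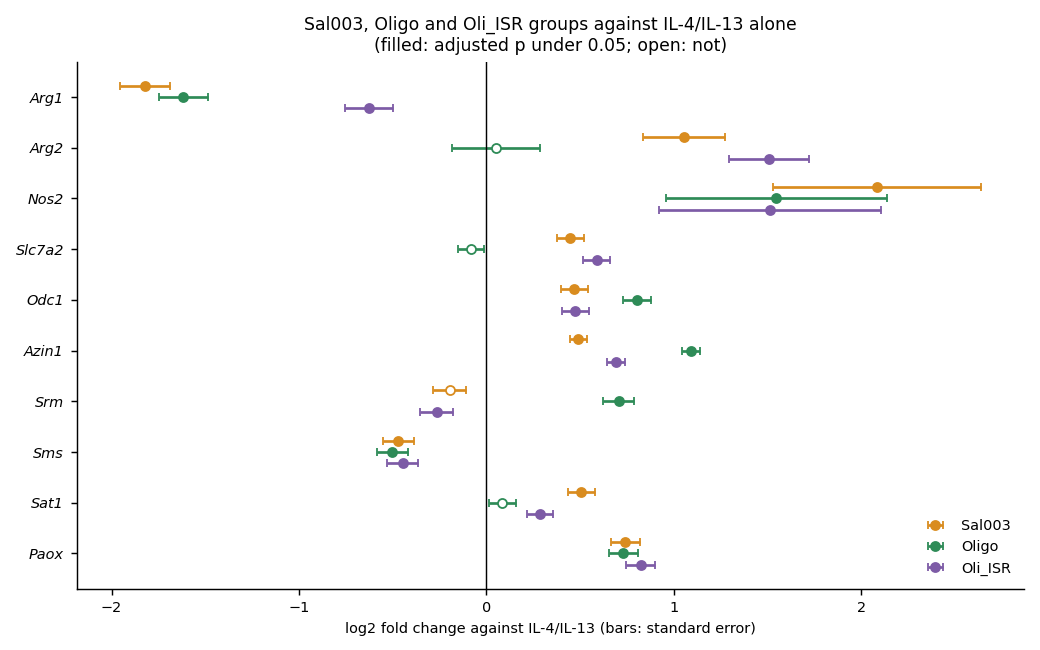
Log2 fold changes of the 10 genes against IL-4/IL-13 alone for Sal003, Oligo and Oli_ISR, with bars for the standard error, filled where the adjusted *P* value was under 0.05. *Arg1* was below 0 in the 3 groups and *Odc1*, *Azin1* and *Paox* were above 0 in the 3 groups, while *Srm* was above 0 in Oligo and below 0 in the other two. The IL-4/IL-13 libraries had 0 to 3 reads of *Nos2*, so its fitted values are no bound.

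Further genes of the pathway were taken from 6 lists with 48 genes, of which 39 were tested. Over them, 13 rose and 13 fell with the cytokines, where 30.1% of all genes rose and 30.4% fell. With tunicamycin 16 rose and 15 fell (38.7% and 37.6% of all genes), with Sal003 9 and 13 (25.9% and 24.6%), in Oligo 13 and 14 (34.0% and 32.2%) and in Oli_ISR 10 and 14 (27.9% and 26.4%). The counts per list are to be read against these same shares of all genes. The lists too were chosen with earlier results of these data known, so their counts are descriptive. The genes described include the up to 3 with the largest change per list and comparison. Values in other comparisons are given for a part of them, so a comparison left out does not mean no change.

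*Slc7a1*, which encodes the constitutive carrier CAT1, had 6.37 ± 0.598 CPM without cytokine and 15.5 ± 2.30 CPM with IL-4/IL-13 (log2 fold change 1.28, SE 0.10). It rose to 265 ± 14.3 CPM with tunicamycin, where *Slc7a2* fell to 3.09 ± 0.262 CPM. It had 26.0 ± 1.01 CPM with Sal003, 143 ± 8.12 CPM in Oligo and 91.5 ± 7.91 CPM in Oli_ISR libraries. The log2 fold changes over IL-4/IL-13 were 4.09, 0.74, 3.20 and 2.56 (SE 0.08 to 0.09, adjusted *P* at most 7.0e-08). *Slc3a2*, the heavy chain that pairs with several amino acid carriers, moved in the same order, with log2 fold changes of 3.85, 1.35, 2.45 and 1.73, and fell by 0.25 with the cytokines. *Slc7a7*, the light chain of an arginine exporter, fell from 50.2 ± 5.04 to 13.4 ± 0.474 CPM with the cytokines and had 37.7 ± 1.19 CPM with tunicamycin. *Slc7a6*, another light chain of this kind, rose by 1.53 with tunicamycin, 0.51 in Oligo and 0.19 in Oli_ISR (SE 0.07 each), and *Slc25a15*, the mitochondrial ornithine carrier, was higher in Oligo than in Oli_ISR by 0.37 (SE 0.08). Of the 7 genes of this list, 1 rose and 3 fell with the cytokines, 5 and 1 with tunicamycin, 3 and 1 with Sal003 and 4 and 1 in Oligo, and in Oli_ISR 3 rose and 4 did not pass the test.

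Among the genes of citrulline, nitric oxide and its cofactor named by the rule above, *Ass1* changed most with Sal003, in Oligo and in Oli_ISR. The enzyme of *Ass1* joins citrulline to aspartate on the way back to arginine. *Ass1* had 10.9 ± 1.21 CPM with IL-4/IL-13 and 13.1 ± 0.750 CPM with tunicamycin, which did not pass the test (adjusted *P* = 0.14). It rose to 47.4 ± 8.63 CPM with Sal003, 90.5 ± 4.32 CPM in Oligo and 36.1 ± 8.87 CPM in Oli_ISR, with log2 fold changes of 2.12, 3.06 and 1.74 (SE 0.15 each). Oligo was above Oli_ISR by 1.32 (SE 0.13, adjusted *P* = 7.3e-09). *Qdpr*, which recycles the cofactor tetrahydrobiopterin, rose with the cytokines (log2 fold change 1.11, SE 0.06) and fell with each inhibitor, from -0.29 with Sal003 to -1.03 in Oligo. *Gch1*, the first enzyme of cofactor synthesis, fell by 0.28 with the cytokines and rose over IL-4/IL-13 by 0.74 with tunicamycin, where *Nos2* was highest, by 0.26 with Sal003, by 0.82 in Oligo and by 0.62 in Oli_ISR (SE 0.06 each). *Ddah2*, of the family that breaks down inhibitors of nitric oxide synthase, fell with the cytokines (log2 fold change -1.32, SE 0.16) and rose by 1.37 in Oligo (SE 0.16). *Asl*, the enzyme after that of *Ass1*, rose by 0.34 with Sal003 (SE 0.05), and *Spr*, the last step of cofactor synthesis, fell with tunicamycin (log2 fold change -0.41, SE 0.08). Of 8 tested genes in this list of 11, 2 rose and 4 fell with the cytokines, 1 and 4 with tunicamycin, 3 and 1 with Sal003, 4 and 2 in Oligo and 3 and 3 in Oli_ISR, and *Nos1*, *Nos3* and *Gchfr* did not pass the count filter.

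Enzymes of ornithine, proline and creatine differed among themselves. *Oat*, whose enzyme takes ornithine toward proline and glutamate, rose with the cytokines (log2 fold change 0.34, SE 0.05) and by 1.64 with tunicamycin (SE 0.05). It fell with Sal003, in Oligo and in Oli_ISR, with log2 fold changes of -0.22, -0.59 and -0.58 (SE 0.05 each). *Aldh18a1*, the first step of proline synthesis from glutamate, rose from 9.45 ± 0.557 CPM with IL-4/IL-13 to 141 ± 3.18 CPM with tunicamycin (log2 fold change 3.90, SE 0.06, adjusted *P* = 3.9e-25). It had 16.5 ± 1.31 CPM with Sal003, 63.6 ± 1.65 CPM in Oligo and 44.7 ± 3.63 CPM in Oli_ISR. *Pycr1*, a last step of proline synthesis, rose from 0.302 ± 0.244 CPM with IL-4/IL-13 to 12.2 ± 0.447 CPM with tunicamycin (log2 fold change 5.31, SE 0.25, adjusted *P* = 5.7e-16). *Gatm*, which draws on arginine to begin creatine synthesis, behaved like *Arg1* and *Slc7a2* toward the cytokines and tunicamycin. It had 84.0 ± 1.56 CPM in naive, 524 ± 11 CPM in IL-4/IL-13 and 12.6 ± 2.26 CPM in tunicamycin libraries (log2 fold changes 2.64, SE 0.08, and -5.38, SE 0.10). In Oligo it had 238 ± 17.7 CPM (log2 fold change -1.14, SE 0.08), and with Sal003 427 ± 29.9 CPM (log2 fold change -0.30, SE 0.08). Oli_ISR libraries had 432 ± 41.8 CPM (log2 fold change -0.28, SE 0.08). *Gamt*, the next enzyme of creatine synthesis, fell with tunicamycin, with Sal003, in Oligo and in Oli_ISR, with log2 fold changes of -2.58, -0.45, -1.58 and -0.74. Of the 8 tested genes of this list of 10, 4 rose and 1 fell with the cytokines, 5 and 3 with tunicamycin, 1 and 4 with Sal003, 2 and 5 in Oligo and 2 and 4 in Oli_ISR.

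Among other polyamine genes, *Azin2*, a paralog of *Azin1*, did not follow it under tunicamycin. It rose from 3.50 ± 0.252 to 10.1 ± 0.777 CPM with the cytokines (log2 fold change 1.53, SE 0.12) and fell to 0.907 ± 0.235 CPM with tunicamycin (log2 fold change -3.46, SE 0.15, adjusted *P* = 1.7e-16), to 7.51 ± 0.990 CPM with Sal003 and to 5.86 ± 1.04 CPM in Oligo. *Oaz1*, which encodes the antizyme that *Azin1* opposes, fell by 0.75 with tunicamycin and by 0.93 in Oligo (SE 0.07 each). It had 175 ± 3.45 CPM with IL-4/IL-13, 144 ± 3.47 CPM with Sal003 and 136 ± 6.25 CPM in Oli_ISR libraries. *Smox*, the oxidase that acts on spermine directly, fell with the cytokines (log2 fold change -1.02, SE 0.06) and further with Sal003 and in Oli_ISR (log2 fold changes -0.51 and -0.43), and rose by 0.47 with tunicamycin. *Amd1*, whose enzyme supplies the aminopropyl groups for spermidine and spermine, rose by 0.84 with tunicamycin (SE 0.05). *Mat2a*, whose enzyme makes S-adenosylmethionine, rose by 0.58 with the cytokines and fell with Sal003 and in Oli_ISR (log2 fold changes -0.46 and -0.52), and *Oaz2*, another antizyme gene, fell in Oligo and Oli_ISR (log2 fold changes -0.73 and -0.52). Of 9 tested genes in this list of 12, 4 rose and 2 fell with the cytokines, 3 rose and 3 fell with tunicamycin, 1 rose and 6 fell with Sal003, 1 rose and 4 fell in Oligo and 1 rose and 5 fell in Oli_ISR.

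*Atp13a3*, a polyamine uptake pump, rose from 112 ± 23.4 to 146 ± 13.0 CPM with the cytokines and fell with each inhibitor, to 72.2 ± 3.12 CPM in Oligo (log2 fold change -1.02, SE 0.13, adjusted *P* = 1.1e-07). *Atp13a2*, which exports spermine from lysosomes, fell by 0.99 with the cytokines (SE 0.04) and rose with Sal003 and in Oli_ISR, by 0.54 and 0.50. *Eif5a*, the translation factor that carries hypusine, a residue made from spermidine, rose with the cytokines (log2 fold change 1.25, SE 0.07). It fell by 0.40 with tunicamycin, by 0.42 in Oligo and by 0.22 in Oli_ISR, whereas *Dhps*, which begins the modification, rose by 0.50 with tunicamycin and by 0.50 in Oligo. *Dohh*, which completes it, rose by 0.60 with tunicamycin and by 0.42 in Oligo (SE 0.16 each), and *Eif5a2*, a paralog of *Eif5a*, fell with the cytokines (log2 fold change -0.57, SE 0.09). Of the 4 hypusine genes, 1 rose and 1 fell with the cytokines, 2 and 2 with tunicamycin and 2 and 1 in Oligo. In Oli_ISR 1 fell and 3 did not pass the test, and with Sal003 the 4 adjusted *P* values were 0.18 to 0.99. Of the 3 tested genes of polyamine transport, 1 rose and 2 fell with the cytokines, 1 and 1 with Sal003 and 1 and 1 in Oli_ISR. With tunicamycin 2 fell and 1 did not pass, and in Oligo 1 fell and 2 did not pass.

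**Figure D5:**
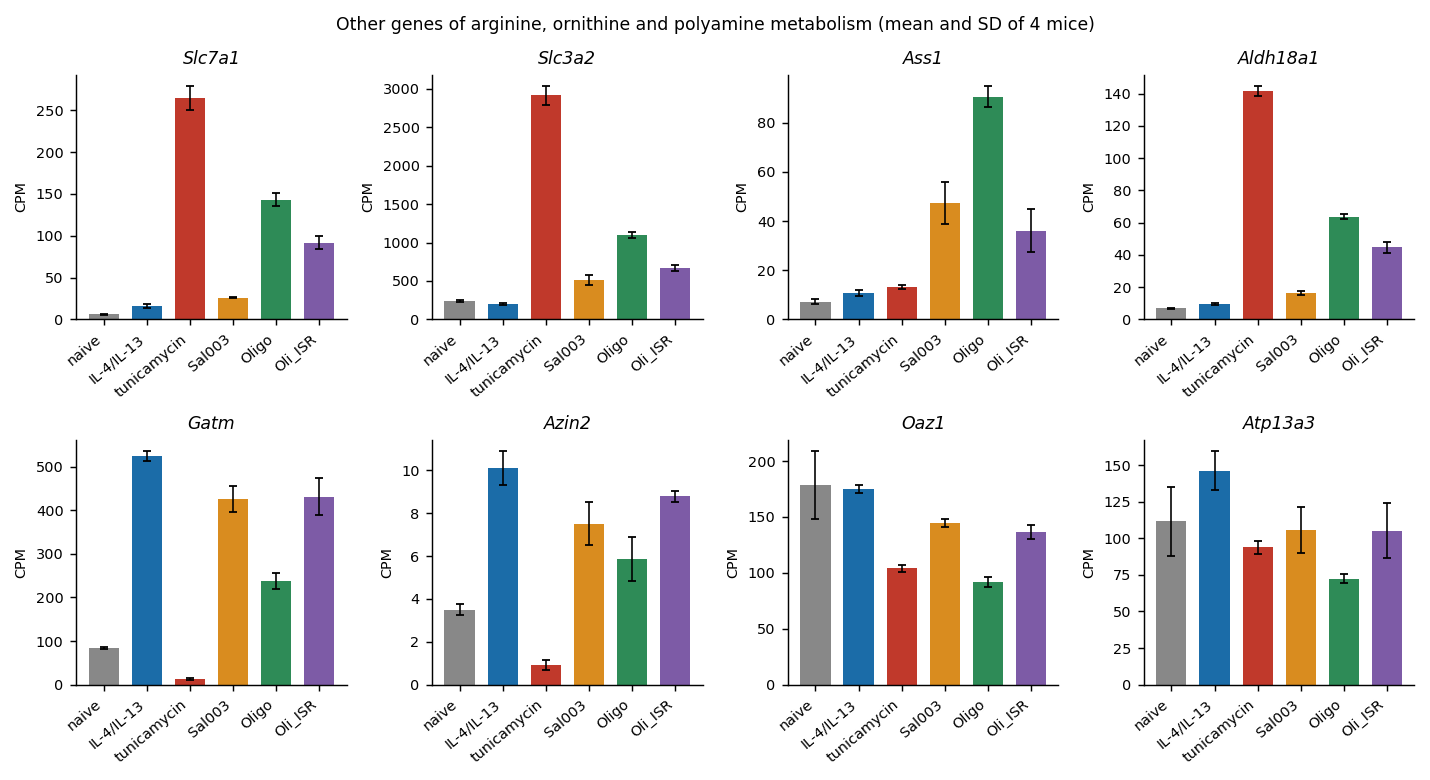
CPM of 8 further pathway genes by group, as bars from 0 for the mean of 4 mice with error bars for the SD, each gene on its own linear axis. *Slc7a1*, *Slc3a2* and *Aldh18a1* were highest with tunicamycin, *Ass1* in Oligo, and *Gatm* and *Azin2* with IL-4/IL-13 alone.

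The genes most like 5 members over the 6 groups were found by the root mean square difference between centered group means of log2 CPM, over 6 groups of 4 libraries each. For *Arg1* they were *Rnase2a* (0.70), *Chil3* (1.12) and *Retnla* (1.79), and for *Slc7a2* *Pdcd1lg2* (0.16), *Lipn* (0.36) and *Kcnd3* (0.68). *Pdcd1lg2* encodes a ligand of PD-1. The measure is not scaled to the size of a gene's changes, so its values are not to be compared between members. For *Arg1* it rests in part on naive and tunicamycin libraries with few reads. For *Odc1* the nearest were *Tmem62* (0.07), *Shq1* (0.09) and *Mmachc* (0.11), and for *Sat1* *Isoc1* (0.08), *Mr1* (0.09) and *Eng* (0.10). For *Nos2* they were *Nucb2* (0.37), *Slc17a9* (0.43) and *Gfpt1* (0.44). The values are descriptive and say nothing of how these genes are controlled.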

How the data were processed

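RNA-seq of 24 libraries from 4 mice in 6 groups was analyzed. The deposited values are raw counts per gene. The authors trimmed reads (Cutadapt 1.8), filtered out ribosomal and low-complexity ones, aligned the rest to GRCm39 (STAR 2.7) and counted them per gene (HTSeq 0.9.1), per the submitters' notes and the paper. The strand setting was not given in the sources used here. The deposited RSEM table (24 columns) was not used, because its header has more names than its rows have cells. Totals on no gene were left out of library sizes.

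In edgeR 4.0.16 (R 4.3.3), counts were scaled by TMM, filtered with filterByExpr on the groups and tested by quasi-likelihood, with a coefficient per group. TPM was calculated from these counts and the union of exons in GENCODE, in which 56323 identifiers were found. The test was checked on simulated data with the same spread for all genes, no mouse effect and changes only in genes averaging at least 50 counts. The check therefore does not cover members with few reads or the pairing by mouse. The floor was 3 counts per library, the most that a count of 0 allows, and it covers counting error only. Where all libraries of a group lay at or under it, the other group was also set against the floor. That ratio is no strict bound where the libraries held reads. Replicates are separate mice. Libraries of the same mouse deviated together from the group means (median correlation 0.24, with 56 of 60 over 0.1), while those of different mice did not (median -0.05, with 7 of 180), so the mouse number pairs the samples. The study states no mouse term, so none was fitted here. Alternatives were the mouse as a replicate block, upper-quartile and DESeq2 size factors, DESeq2 1.42.0, no filter, at least 10 counts in every library, only the groups compared, a prior count of 0.5, the 2.5-fold threshold, leaving out each mouse and, chosen after seeing the data, canonical transcript length for TPM.

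Members and lists were chosen with earlier results of these data known. The named genes were the 10 members and, per list and comparison, up to 3 with the largest log2 fold change among those that passed, with a mean of at least 50 counts and the same direction in 4 of 4 mice. The likeness measure used genes with the same minimum.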

Additional observations from a re-analysis of the deposited data

Results flagged for a closer look

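Of the levels of the 10 genes in the 6 groups of 4 libraries, 2 held a library far from the other 3 by Dixon's criterion. *Arg1* in the IL-4/IL-13 library of mouse 5 was 405 CPM, against 465 to 475 CPM in the other 3 mice. *Sms* in the naive library of mouse 2 was 17.4 CPM, against 12.9 to 13.6 CPM. Chance flags about 1 in 20 groups, and 60 were examined. The cause of either value was not tested.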

How the results depend on the processing

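Over the 6 comparisons, the 10 genes gave 60 log2 fold changes and 697 alternative values, of which 668 kept their direction and their side of the threshold, 16 lost the call, 8 gained it and 5 reversed. Members with few reads are missing from some alternatives. *Arg1*, *Arg2* and *Nos2* were not tested with at least 10 counts in every library. *Nos2* was not tested with only the groups compared, except where tunicamycin was one of them. With the replicate block, which pairs libraries of the same mouse, none of the 60 changed its call, and the numbers of members that passed were 8, 10, 9, 7, 10 and 7, as without it. Outside these 60, the block gained the call for *Arg1* between Oligo and Sal003 (adjusted *P* = 0.017). Reversals were in values that had not passed the test, though *Sms* in Sal003 against naive gained the call without mouse 2 (adjusted *P* = 0.020). *Sat1* between IL-4/IL-13 and naive was -0.0038 with upper-quartile normalization and ranged from -0.021 to 0.084 when a mouse was left out. Leaving out a mouse gave -0.22 to 0.24 for *Arg2* in Oligo against IL-4/IL-13, -0.39 to 0.76 for *Nos2* between Oligo and Oli_ISR, -0.44 to 0.84 for *Nos2* in Oli_ISR against naive, -0.10 to 0.0067 for *Srm* and -0.054 to 0.058 for *Sms* in Oli_ISR against Sal003, -0.018 to 0.19 for *Sms* in Sal003 against naive, and -0.022 to 0.10 in Oligo against naive, which was -0.0043 with at least 10 counts in every library. *Odc1* in tunicamycin against Oligo was 0.0099 with no filter and -0.037 to 0.028 without a mouse. *Odc1* in Oli_ISR against Sal003 was -0.0063 with upper-quartile normalization, -0.0018 with no filter, -0.00071 with only the groups compared and -0.0048 to 0.0090 without a mouse. *Paox* in Oligo against Sal003 was 0.017 with upper-quartile normalization, 1.7e-05 with only the groups compared and -0.064 to 0.045 without a mouse. The cause was not tested.

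With the 2.5-fold threshold added, genes past the test numbered 1569 of 8279 (IL-4/IL-13 against naive), 3088 of 10437 (tunicamycin), 1055 of 6917 (Sal003), 1744 of 9051 (Oligo), 1089 of 7428 (Oli_ISR) and 358 of 5634 (Oligo against Oli_ISR), and members past it 2 of 8, 6 of 10, 2 of 9, 2 of 7, 2 of 10 and 1 of 7, by construction. Depth limits *Nos2*, *Arg1* in naive and tunicamycin libraries, and *Arg2* in tunicamycin libraries, where a library held few reads.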
